A study of Homo sapiens with 12 samples.

Results

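PDE2A and 9 of its relatives, PDE3A, PDE3B, PDE4A, PDE4B, PDE4D, PDE7A, PDE8A, PDE9A and PDE10A, are human cyclic nucleotide phosphodiesterase genes, and their RNA was followed over 12 libraries of HEK293T cells. These 10 genes were picked by name from the 24402 features of the count tables. PDE2A was chosen because its RNA was higher with the p300 core in these same libraries, so its level in that group is described below and not tested. HEK293T is a human cell line of embryonic kidney origin with the SV40 large T antigen. All 12 cultures received guide RNAs for 4 sites at IL1RN, the gene of the interleukin 1 receptor antagonist, so no group was without guides. The groups differed in the plasmid for the protein: dCas9 alone, which binds DNA without cutting it, dCas9-VP64, which carries a viral activation domain, dCas9-p300 core, which carries the catalytic core of p300, a histone acetyltransferase, and dCas9-p300 D1399Y, whose core lacks acetyltransferase activity. Each group held 3 libraries. The plasmids were delivered with a lipid reagent, each library was made from bulk RNA, and the sources used here do not give the time from transfection to harvest. The study asked which genes besides the guide target differed with these proteins.

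Cyclic nucleotide phosphodiesterases end cAMP and cGMP signals by cleaving the cyclic bond, which yields AMP or GMP. Families differ in the nucleotide they cleave and in how they are controlled. PDE2A cleaves both and is stimulated by cGMP, the PDE3 enzymes cleave cAMP and are inhibited by cGMP, the PDE4, PDE7 and PDE8 enzymes are specific for cAMP, PDE9A is specific for cGMP, and PDE10A cleaves both. PDE2A is known from brain, adrenal cortex and endothelium, and PDE10A from the striatum.

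The promoters of PDE2A and PDE10A are printed because they lie near opposite ends of the member windows used in CpG content. Whether CpG content bears on the level with the core was not tested. Each run holds the 250 bases before an annotated RefSeq start in GRCh38.p14, 5′ to 3′ on the gene's strand, with every CG in capitals. The PDE2A window is chr11:72674423-72674672, minus strand, and the PDE10A window is chr6:165663242-165663491, minus strand.
PDE2A: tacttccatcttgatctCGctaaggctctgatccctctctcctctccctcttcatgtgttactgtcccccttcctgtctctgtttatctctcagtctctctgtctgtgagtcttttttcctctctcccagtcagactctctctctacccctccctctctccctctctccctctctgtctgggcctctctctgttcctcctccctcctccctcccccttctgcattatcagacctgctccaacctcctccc
PDE10A: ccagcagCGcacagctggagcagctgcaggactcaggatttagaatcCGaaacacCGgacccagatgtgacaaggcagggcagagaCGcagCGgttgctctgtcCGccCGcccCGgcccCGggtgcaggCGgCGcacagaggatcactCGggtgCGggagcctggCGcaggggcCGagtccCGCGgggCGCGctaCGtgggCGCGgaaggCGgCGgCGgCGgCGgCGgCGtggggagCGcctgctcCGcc
The PDE2A window held 1 CpG at a GC content of 54.0%, and the PDE10A window held 31 CpG at 73.6%. Another PDE10A window, not printed, held 24 CpG, and that of PDE3A held 0. Among 35116 windows of the same length from 27305 genes the median was 11 CpG, and 14.7% held no more CpG than PDE2A. RefSeq windows of 7 of the 10 members were used, 26 windows in all, and those of PDE3B, PDE7A and PDE9A were not. Of the 26, 18 held more CpG than that of PDE2A and 2 held fewer. The cAMP response element TGACGTCA, which reads the same on both strands, was in 0 of the 26 windows and in 1.65% of all windows. A match or its absence here describes these letters only.

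The libraries held between 2442960 counts, in dCas9 replicate 3, and 5154627 counts, in core replicate 2. The guide target followed its labels: IL1RN stood at 6.74 ± 2.51 CPM (SD, n = 3) with dCas9, 24.7 ± 6.07 with VP64, 83.6 ± 8.64 with the core and 7.78 ± 1.42 with D1399Y. CPM is the edgeR scale of counts relative to library sizes after TMM scaling. In edgeR IL1RN passed an adjusted p of 0.05 for the core against each other group. It did not pass for VP64 against dCas9 (edgeR adjusted p 0.0748) or against D1399Y (0.119). The 8 HEK293T markers, such as VIM and the neurofilament gene NEFL, were all tested and summed to between 501 and 706 CPM in every library. Replicate 3 of dCas9 stood apart from the other 11 libraries. Its mean correlation of log2 CPM with them was 0.917, against 0.966 to 0.978 for each of the others. Log2 ratios were also taken to the mean of all 12 libraries. Genes with transcripts up to 1986 bases had a median ratio of 0.43 in this library, and those from 4617 bases had one of -0.66. The core against dCas9 is given with and without it below for the members and the lists, and the other comparisons with dCas9 only in part. Without it VP64 against dCas9 also turned from above to below 0 on the log2 scale for PDE4B, PDE4D, PDE7A, PDE8A and PDE10A. D1399Y against dCas9 did so for PDE4B. What set it apart was not tested.

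PDE2A RNA was low in HEK293T cells and was highest in the core group. In dCas9 replicates 1, 2 and 3 it stood at 1.98, 3.59 and 3.33 CPM, from 7, 15 and 9 counts. With VP64 the values were 2.23, 1.78 and 4.07 CPM, from 9, 7 and 16 counts, and with D1399Y they were 3.26, 1.16 and 2.66 CPM, from 12, 4 and 10 counts. These 9 libraries lay among each other, with no group apart. With the core, PDE2A reached 7.15, 12.6 and 9.47 CPM, from 27, 65 and 36 counts. All 3 core libraries lay above all 9 others, the lowest of them at 7.15 CPM against 4.07 CPM for the highest of the rest.

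**Figure D1:**
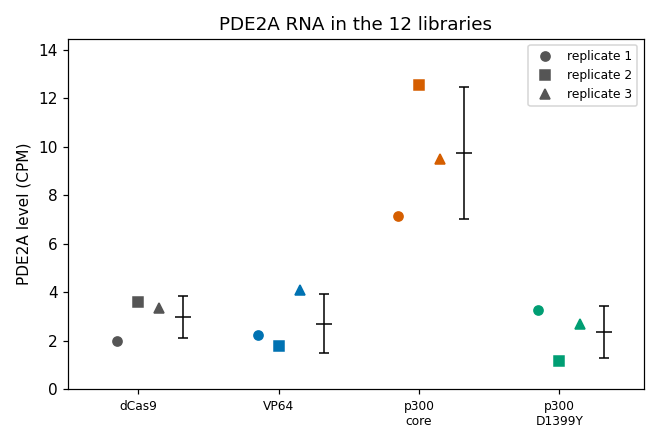
PDE2A level in CPM (vertical axis, linear from 0) in each of the 12 libraries, by group. Circles, squares and triangles are replicates 1, 2 and 3, and the black marks are the group mean and SD; the core libraries sit between 7.15 and 12.6 CPM and the other 9 between 1.16 and 4.07 CPM.

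The group means of PDE2A were 2.97 ± 0.862 CPM (SD, n = 3) with dCas9, 2.70 ± 1.21 with VP64, 9.73 ± 2.71 with the core and 2.36 ± 1.08 with D1399Y. As a description, since the gene was chosen for it, the core group was 3.28-fold above dCas9 (log2 1.71 ± 0.37, SE), 4.09-fold above D1399Y (2.03 ± 0.38) and 3.62-fold above VP64 (1.86 ± 0.37). Of the 14616 genes tested, 10 had a larger log2 fold change than PDE2A against dCas9, 4 against D1399Y and 6 against VP64. Bulk RNA cannot tell more cells with PDE2A RNA from more of it per cell. Replicate 3 of both p300 groups came from another pool, labelled CV42, and within the 10 CV41 libraries the log2 differences of the core were 1.74 from dCas9, 2.15 from D1399Y and 1.88 from VP64. Without dCas9 replicate 3 the difference from dCas9 was 1.79 ± 0.41.

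PDE2A did not pass the test in the comparisons that left the core out, which its choice did not use. With VP64 its level was 0.907-fold that with dCas9 (95% interval 0.471 to 1.75), with an adjusted p of 0.966 in edgeR's quasi-likelihood test over all genes. D1399Y gave 0.802-fold the dCas9 level (0.407 to 1.58), adjusted p = 0.767 by the same edgeR test. VP64 against D1399Y gave 1.13-fold (0.576 to 2.22), edgeR adjusted p = 1.00. These intervals reach from 0.407-fold to 2.22-fold, at 4 to 16 counts a library. They do not give the smallest change that the adjusted test could call. In the same edgeR test IL1RN, at 3.73-fold for VP64 against dCas9, did not pass (adjusted p 0.0748). The smallest change that could be called in a gene as scarce as PDE2A was not tested.

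Of the 4 PDE2A transcripts listed, those of 4315, 3027, 3119 and 4193 bases, each had more counts with the core than elsewhere. Summed over the 3 core libraries they held 29, 33, 37 and 29 counts, against 5 to 10 in each of the other groups. The counts were alike over transcripts of different length, the rule for reads shared by isoforms is unknown here, and values of single transcripts may therefore not measure isoforms separately. None of the 4 passed the filter on low counts. The sources used here do not give the strand setting, so reads of an antisense RNA at PDE2A could not be told apart from its own.

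The genes around PDE2A on chromosome 11 did not pass the test. Of the 4 protein-coding genes on each side in the order of GRCh38, 6 were tested: INPPL1, a lipid phosphatase gene, CLPB, a mitochondrial disaggregase gene, ARAP1, STARD10, ATG16L2 and FCHSD2. Against dCas9 the core gave log2 changes of 0.07 ± 0.13 for INPPL1, 0.11 ± 0.14 for CLPB and 0.06 ± 0.17 for ARAP1. The values were -0.16 ± 0.29 for STARD10, -0.08 ± 0.35 for ATG16L2 and 0.25 ± 0.23 for FCHSD2 (SE, n = 3 a group). In edgeR 0 of the 6 were called in any of the 6 comparisons, and 0 had an unadjusted p under 0.05 there. Of all genes tested, at most 0.00684% were called in a comparison, and 0.657% to 5.89% had such an unadjusted p. A count of 0 among 6 genes therefore says little about this region. The median of the 6 was 0.06 for the core against dCas9, and 0.09 without dCas9 replicate 3. FOLR2 and PHOX2A had too few counts for the test.

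The 5 tested genes whose log2 CPM followed PDE2A most closely over the 12 libraries were CAPN5 (Pearson r = 0.952), KDR (0.900), NPHS1 (0.896), CCDC69 (0.884) and RIMS4 (0.884), given as a description over points that share the 4 groups. CAPN5, a calpain gene, stood at 14.5 ± 1.94 CPM with the core and at 8.34 ± 0.619, 8.16 ± 2.09 and 8.03 ± 1.71 CPM with dCas9, VP64 and D1399Y. KDR, the gene of a receptor for vascular endothelial growth factor, stood at 8.33 ± 1.02 CPM with the core and at 1.09 ± 0.510, 1.27 ± 0.681 and 1.45 ± 0.807 CPM in the same other groups. In all 5 genes the 3 core libraries lay above all 9 others, which their choice by likeness to PDE2A favoured. Among the other 9 members the highest r with PDE2A was that of PDE9A, 0.559, and the others lay between -0.282 and 0.339.

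KDR is also an endothelial marker, and PDE2A is known from endothelium, so the 13 endothelial markers were read in the same libraries. ROBO4 had 0 counts in all, and CDH5, TIE1, ERG and CLDN5 had 1 or 2 counts over all 12 libraries, VWF 7. In the core libraries PECAM1 lay between 0.966 and 2.37 CPM, ESAM between 2.38 and 2.89 CPM, EMCN between 2.51 and 4.74 CPM and TEK between 0.773 and 1.05 CPM. Over all 12 libraries they ran from 0.239 to 2.37, 0.370 to 2.89, 2.29 to 4.74 and 0.478 to 2.22 CPM. The highest library of PECAM1, ESAM, EMCN and KDR was a core library, and that of TEK, FLT1 and EGFL7 was not. With the core FLT1 ran from 65.0 to 72.1 CPM and EGFL7 from 23.9 to 28.3 CPM. The list, of which 4 members were tested, summed to 109 to 115 CPM with the core, 77.1 to 113 with dCas9, 84.0 to 105 with VP64 and 98.0 to 104 with D1399Y, and FLT1 (32.2 to 80.6 CPM) and EGFL7 (15.9 to 34.8 CPM) made up most of it. The 9 neuronal markers, 7 of them tested, summed to 102 to 120 CPM with the core, 74.1 to 120 with dCas9, 77.4 to 110 with VP64 and 94.2 to 111 with D1399Y. The 5 fibroblast markers, 2 of them tested, summed to 24.5 to 25.7 CPM with the core and to 18.4 to 25.8 CPM over the other groups. The 5 blood cell markers, 2 of them tested, summed to 11.1 to 13.5 CPM with the core and to 8.09 to 15.9 CPM over the others, with CD3E and HBB at 0 counts in all libraries. The part of any other cell type in the PDE2A level was not tested.

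The relatives of PDE2A showed no difference that passed the test. In edgeR 0 of the other 9 members were called at an adjusted p under 0.05 in any of the 6 comparisons or over the 4 groups together, and DESeq2 and limma-voom called 0 of them as well. Over all 14616 genes the share called was 0% for VP64 against dCas9, 0.00684% for the core against dCas9, 0% for D1399Y against dCas9, 0.00684% for the core against D1399Y, 0.00684% for the core against VP64, 0% for VP64 against D1399Y and 0.0205% over the 4 groups. So few calls in any gene set leave little to read from a count of 0. At an unadjusted p under 0.05 the members numbered 2, 0, 2, 1, 1 and 0 of 9 in those 6 comparisons, and 2 over the 4 groups. The shares of all genes there were 3.07%, 3.11%, 5.89%, 1.86%, 2.11% and 0.657%, and 1.84% over the 4 groups. PDE3B and PDE9A held all of these. The comparisons share libraries, dCas9 above all, and are no independent evidence of each other.

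PDE3B, the PDE3 enzyme known from fat and liver cells and insulin signalling, had its lowest mean in the dCas9 group. It stood at 23.0, 44.0 and 16.7 CPM in dCas9 replicates 1, 2 and 3, at 62.3, 48.3 and 44.3 CPM with VP64, at 35.5, 47.9 and 39.2 CPM with the core, and at 54.8, 63.0 and 40.5 CPM with D1399Y. The 3 VP64 libraries lay just above all of dCas9, 44.3 against 44.0 CPM, while the core and D1399Y overlapped with it. VP64 gave 1.82-fold the dCas9 level (95% interval 1.18 to 2.79), with an unadjusted p of 0.00990 and an adjusted p of 0.929 in edgeR. D1399Y gave 1.86-fold (1.21 to 2.86), edgeR adjusted p = 0.633, and the core 1.44-fold (0.937 to 2.22), edgeR adjusted p = 0.880. Without dCas9 replicate 3, the lowest library, these log2 differences went from 0.86 to 0.61, from 0.89 to 0.64 and from 0.53 to 0.28. PDE3B was the 1 member whose groups did not overlap with VP64 higher than dCas9, where 3.20% of all genes did the same.

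PDE3A, the PDE3 enzyme of heart and platelets, was scarce throughout. It stood at 5.10, 7.65 and 2.22 CPM with dCas9, at 9.18, 5.60 and 5.35 CPM with VP64, at 6.36, 7.15 and 8.68 CPM with the core and at 5.97, 4.91 and 3.73 CPM with D1399Y. The core libraries lay above those of D1399Y and overlapped with both other groups. The core was 1.51-fold D1399Y (0.886 to 2.59), edgeR adjusted p = 1, and 1.42-fold dCas9 (0.829 to 2.41), edgeR adjusted p = 0.880. Without dCas9 replicate 3 the latter went from 0.50 to 0.20 on the log2 scale.

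PDE9A, the cGMP-specific member, had higher means with dCas9 and the core than with VP64 and D1399Y. It stood at 57.2, 60.3 and 93.0 CPM with dCas9, at 46.9, 56.5 and 52.2 CPM with VP64, at 69.1, 73.2 and 65.8 CPM with the core and at 52.9, 48.0 and 58.3 CPM with D1399Y. All core libraries lay above all of VP64 and of D1399Y, and all of VP64 lay below dCas9. The core was 1.34-fold VP64 (1.03 to 1.74; unadjusted p 0.0310 and adjusted p 1.00 in edgeR) and 1.31-fold D1399Y (1.01 to 1.70; 0.0452 and 1). Its level with the core did not differ measurably from that with dCas9, at 0.995-fold (0.767 to 1.29), edgeR adjusted p = 0.994. VP64 gave 0.743-fold the dCas9 level (0.571 to 0.967), edgeR adjusted p = 0.929, and D1399Y 0.761-fold (0.585 to 0.990), edgeR adjusted p = 0.633. The highest library was dCas9 replicate 3, and without it the log2 differences from dCas9 were -0.18 for VP64 in place of -0.43, -0.15 for D1399Y in place of -0.39 and 0.24 for the core in place of -0.01.

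Counting members whose groups did not overlap, the core lay above D1399Y for 3 of 10, PDE2A, PDE3A and PDE9A, where 5.41% of all genes did, and below it for 0, where 4.48% did. Against VP64 the core lay above for 2, PDE2A and PDE9A, where 5.65% of all genes did, and below for 0, where 4.64% did. PDE2A was chosen for these contrasts, so only PDE3A and PDE9A add to them. VP64 lay below dCas9 for 1 member, PDE9A, where 2.74% of all genes did. The core lay above dCas9 for PDE2A alone, where 3.89% did, which the choice of PDE2A fixed, and below it for 0, where 3.02% did. D1399Y lay neither above nor below dCas9 for any member, where 3.44% and 3.82% of all genes did. VP64 lay neither above nor below D1399Y for any member, where 3.22% and 2.76% of all genes did.

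**Figure D2:**
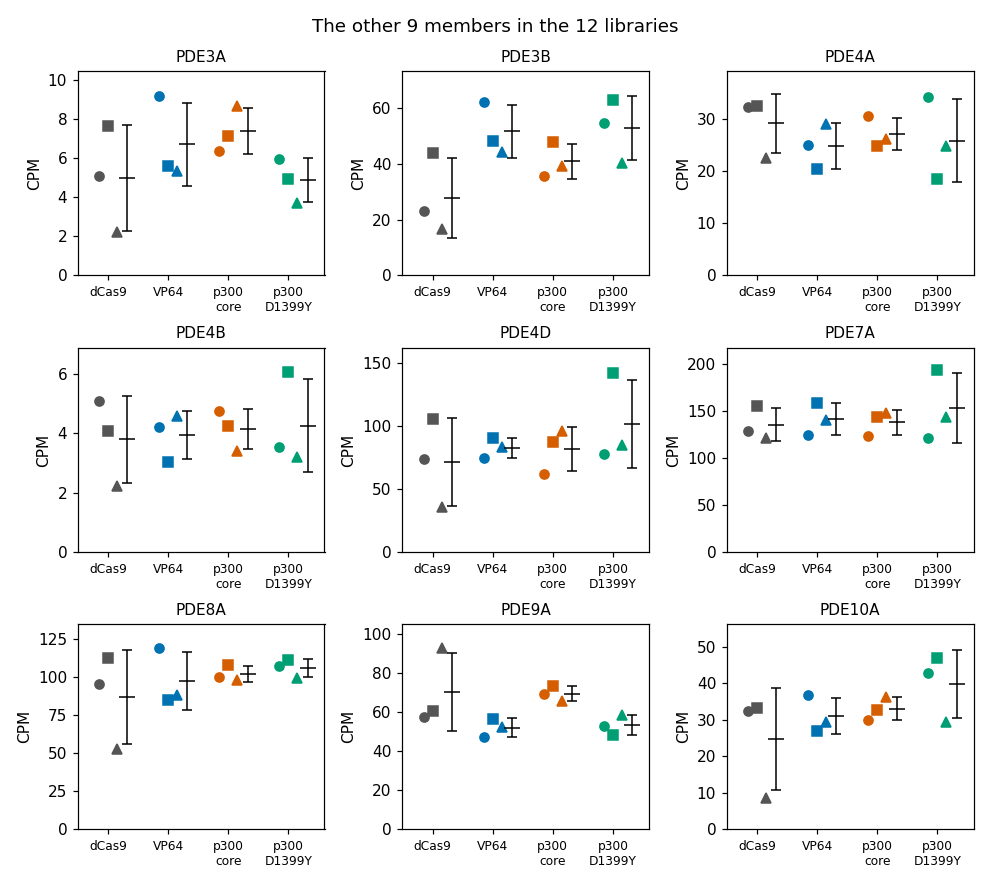
Level in CPM (vertical axes, linear from 0 and scaled per gene) of the other 9 members in the 12 libraries; circles, squares and triangles are replicates 1, 2 and 3, and black marks are the group mean and SD. The dCas9 triangle is the lowest point for PDE3A, PDE3B, PDE4B, PDE4D, PDE8A and PDE10A and the highest for PDE9A.

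The PDE4 genes encode the cAMP-specific enzymes that the drug rolipram inhibits. PDE4A stood at 32.3, 32.5 and 22.6 CPM with dCas9, at 25.1, 20.4 and 29.0 CPM with VP64, at 30.5, 24.7 and 26.0 CPM with the core and at 34.2, 18.5 and 24.8 CPM with D1399Y. PDE4D stood at 74.0, 106 and 35.6 CPM with dCas9, at 74.7, 90.3 and 83.5 CPM with VP64, at 62.0, 87.5 and 95.8 CPM with the core and at 77.9, 142 and 85.2 CPM with D1399Y. The groups overlapped for both genes. PDE4B, known from immune cells and brain, was scarce: 5.10, 4.07 and 2.22 CPM with dCas9, 4.22, 3.05 and 4.58 CPM with VP64, 4.77, 4.25 and 3.42 CPM with the core, and 3.53, 6.07 and 3.19 CPM with D1399Y. Its 4 group means lay between 3.80 and 4.26 CPM, each with an SD of 0.679 to 1.57 CPM. The core against dCas9 gave 0.921-fold for PDE4A (0.655 to 1.30), 1.13-fold for PDE4D (0.706 to 1.81) and 1.07-fold for PDE4B (0.639 to 1.78). Leaving out dCas9 replicate 3, these log2 differences went from -0.12 to -0.26 for PDE4A and turned sign for the others, from 0.18 to -0.14 for PDE4D and from 0.09 to -0.13 for PDE4B.

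PDE7A and PDE8A, cAMP-specific enzymes that rolipram does not inhibit, were among the more abundant members. PDE7A stood at 129, 155 and 121 CPM with dCas9, at 124, 159 and 141 CPM with VP64, at 123, 143 and 148 CPM with the core and at 121, 194 and 144 CPM with D1399Y. PDE8A stood at 95.2, 112 and 52.6 CPM with dCas9, at 119, 84.7 and 88.1 CPM with VP64, at 99.8, 108 and 98.1 CPM with the core and at 107, 111 and 99.3 CPM with D1399Y. All groups overlapped. For the core against dCas9 the fold was 1.02 for PDE7A (0.787 to 1.32) and 1.17 for PDE8A (0.844 to 1.62). Both turned sign without dCas9 replicate 3, from 0.03 to -0.04 on the log2 scale for PDE7A and from 0.22 to -0.03 for PDE8A.

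PDE10A, which cleaves both nucleotides, stood at 32.3, 33.2 and 8.52 CPM with dCas9, at 36.7, 27.0 and 29.5 CPM with VP64, at 29.9, 32.8 and 36.3 CPM with the core and at 42.9, 47.1 and 29.3 CPM with D1399Y. Its groups overlapped too, and dCas9 replicate 3 lay far below the other 11 libraries. D1399Y was 1.57-fold dCas9 (0.947 to 2.61), edgeR adjusted p = 0.633, and without that library its log2 difference went from 0.65 to 0.28. The core was 1.31-fold dCas9 (0.788 to 2.17), and the log2 difference went from 0.39 to 0.01.

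**Figure D3:**
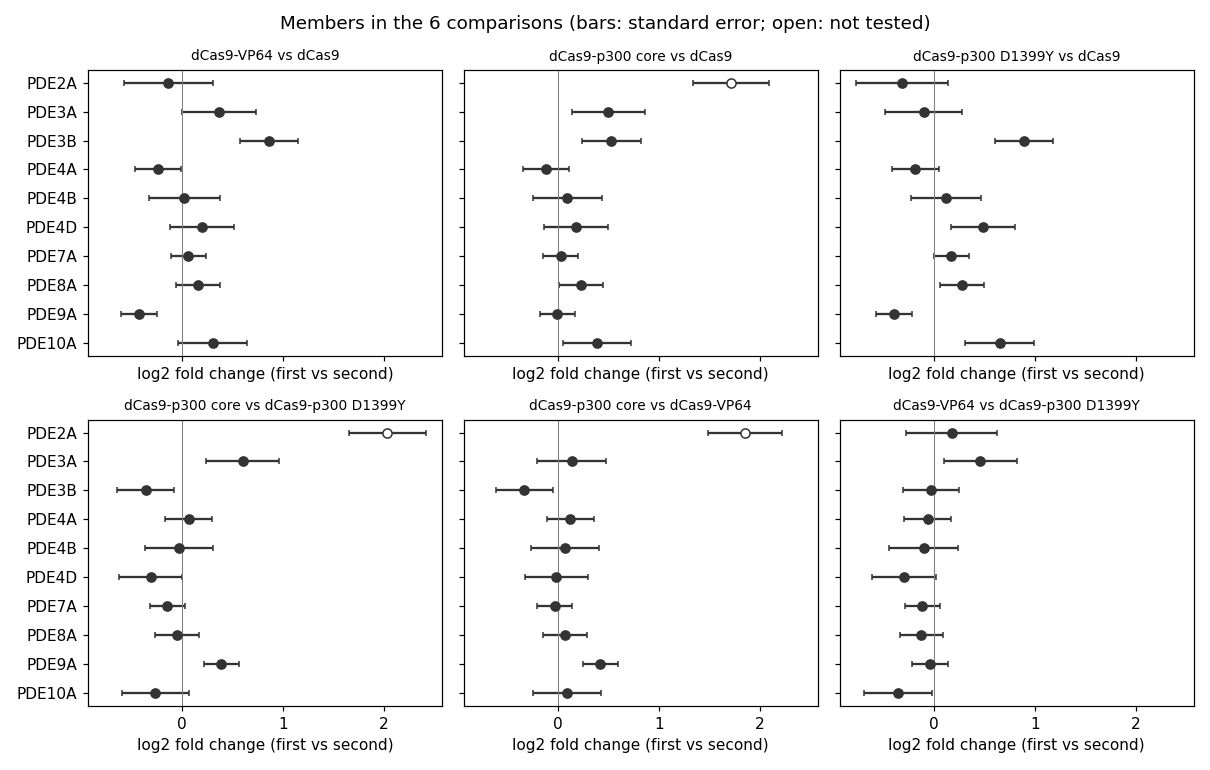
Log2 fold change (horizontal axes, first group against second) of the 10 members in the 6 comparisons, with bars for the standard error; open points are the PDE2A values that were not tested. PDE2A lies at 1.71, 2.03 and 1.86 in the panels with the core, and the other 9 members lie between -0.43 and 0.89 in all panels.

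As a list, the other 9 members were set beside all tested genes, without a test of the list. The core against dCas9 gave a median log2 change of 0.18 with 7 of 9 above 0, while all tested genes had a median of 0.015 with 52.5% above 0. VP64 against dCas9 gave 0.16 (7 of 9, against 50.9% of all genes) and D1399Y against dCas9 0.17 (6 of 9, against 50.2%). Without dCas9 replicate 3 these medians were -0.03 (4 of 9) for the core, -0.10 (2 of 9) for VP64 and 0.03 (5 of 9) for D1399Y. For the core and VP64 the sign shared by most members against dCas9 thus rested on that library. For D1399Y the median fell, while the number above 0 changed little. Between groups without dCas9, the medians were -0.05 for the core against D1399Y (3 of 9 above 0), 0.07 for the core against VP64 (6 of 9) and -0.10 for VP64 against D1399Y (1 of 9). Of all tested genes, 51.1%, 49.5% and 48.8% lay above 0 in these 3 comparisons.

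In dCas9 replicate 3 itself, the members with the longest transcripts were lowest. Against the mean log2 CPM of the other 11 libraries, PDE10A, with a transcript of 8195 bases, lay at -1.93, PDE3B, of 6076 bases, at -1.38, and PDE3A, of 7576 bases, at -1.28. PDE4D and PDE8A, both with a mean of 3430 bases, lay at -1.28 and -0.94. PDE2A, at a mean of 3664 bases, lay at -0.10 and PDE9A, at 1736 bases, at 0.68. This library held the lowest value of 6 of the 10 members and the highest of 1. In D1399Y replicate 2, which held the highest value of 5 members, the medians against all 12 libraries were -0.21 for short and 0.22 for long genes. Offsets for transcript length, an alternative chosen after seeing the data, moved the log2 values of the core against dCas9. They went from 0.53 to 0.35 for PDE3B, from 0.50 to 0.30 for PDE3A and from 0.39 to 0.18 for PDE10A. PDE2A, not tested there, went from 1.71 to 1.61, and 0 of the tested members were called.

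**Figure D4:**
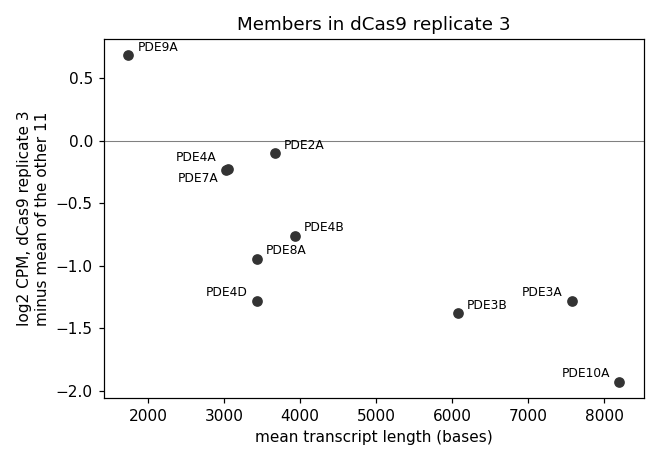
Log2 CPM in dCas9 replicate 3 minus the mean log2 CPM of the other 11 libraries (vertical axis) against mean transcript length in bases (horizontal axis) for the 10 members. PDE10A, PDE3B and PDE3A, at 6076 bases or more, lie at -1.28 or lower, PDE2A at -0.10 and PDE9A at 0.68.

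Levels of the members can be set beside each other only per length. As CPM per kb summed over a gene's transcripts, the means over the 12 libraries were 48.5 ± 7.15 (SD) for PDE7A, 35.1 ± 7.52 for PDE9A, 29.3 ± 5.30 for PDE8A and 27.9 ± 8.50 for PDE4D. PDE4A followed at 9.28 ± 1.77, PDE3B at 7.12 ± 2.30 and PDE10A at 3.92 ± 1.15. PDE2A, PDE4B and PDE3A were lowest, at 1.25 ± 0.993, 1.04 ± 0.258 and 0.791 ± 0.263. Neighbours in this order that lay within their spread of each other were PDE9A, PDE8A and PDE4D, then PDE4A and PDE3B, and then the lowest 3. In the core group PDE2A stood at 2.76 ± 0.767 CPM per kb. Its place above PDE4B came from that group: with dCas9, VP64 and D1399Y its means were 0.833, 0.757 and 0.661 CPM per kb, below those of PDE4B at 0.965, 1.03 and 1.08 (SDs of 0.198 to 0.372, n = 3 a group). The sum favours genes with many listed isoforms, and by the highest single transcript PDE9A, with 20 transcripts, went from 35.1 to 2.12 CPM per kb and from the second to the seventh place, while PDE7A stayed first.

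Single transcripts of the members were tested in a fit of their own. None of those that passed the filter, 19 of them from PDE9A, 9 from PDE4D and 5 from PDE4A, was called in any comparison by edgeR. Within PDE9A the log2 values of these transcripts ran from -0.88 to 1.11 for the core against VP64 and from -1.30 to 0.92 for D1399Y against dCas9.

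The other phosphodiesterase genes were read in the same fit. Of 14, 10 were tested, and 0 were called in either direction in any of the 6 comparisons. PDE1C, PDE6C, PDE6G and PDE6H had too few counts. For the core against dCas9 the median log2 change was 0.17 with 7 of 10 above 0, and the smallest unadjusted p belonged to PDE7B, cAMP-specific, at 0.44 ± 0.28, PDE1A, calcium- and calmodulin-stimulated, at 0.36 ± 0.25, and PDE5A, the cGMP-specific target of sildenafil, at 0.36 ± 0.34. PDE7B rested on 57 counts with the core and 34 with dCas9. Without dCas9 replicate 3 the list's median was 0.13.

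Genes that make cyclic nucleotides gave no calls. Of the adenylyl cyclases and their stimulatory G proteins, 10 of 12 were tested, 0 rose and 0 fell, and the median log2 change of the core against dCas9 was 0.08 with 6 of 10 above 0, or 0.00021 with 5 of 10 above 0 without dCas9 replicate 3. ADCY10, the soluble cyclase, was at -1.03 ± 0.64, on 18 counts with the core and 32 with dCas9. ADCY9 was at 0.26 ± 0.17 and ADCY1 at 0.36 ± 0.23. Of 8 guanylyl cyclase genes 4 were tested with 0 called, at a median of 0.21, or 0.16 without that library. GUCY1A2, a subunit of the nitric oxide receptor, was at 0.71 ± 0.48, GUCY1B1 at 0.24 ± 0.20 and NPR1, a natriuretic peptide receptor, at 0.19 ± 0.42.

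Genes that respond to cyclic nucleotides gave no calls either. Of 27 effectors, among them the subunits of protein kinases A and G, Epac proteins, cyclic nucleotide-gated channels and CREB family factors, 22 were tested and 0 were called. For the core against dCas9 18 of the 22 lay above 0 at a median of 0.12, and without dCas9 replicate 3 12 did at 0.07. RAPGEF4, encoding an Epac protein, was at 0.47 ± 0.21, PRKACB, a catalytic subunit of protein kinase A, at 0.55 ± 0.26, and HCN4, a pacemaker channel, at 0.70 ± 0.39. The edgeR adjusted p of all 3 was 0.880. PRKACB stood at 193 ± 17.9 CPM with the core, 132 ± 62.9 with dCas9, 173 ± 17.6 with VP64 and 205 ± 46.0 with D1399Y.

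Anchoring proteins, which hold protein kinase A and phosphodiesterases at sites in the cell, were all tested, 11 of 11, with 0 called and a median of 0.15 for the core against dCas9. AKAP12 was at 0.22 ± 0.15, AKAP13 at 0.38 ± 0.28 and AKAP9 at 0.37 ± 0.28. Without dCas9 replicate 3 the median was -0.05. The cAMP exporters ABCC4 and ABCC5 were at 0.25 ± 0.25 and 0.07 ± 0.16, and without that library 0 of the 2 lay above 0, at a median of -0.07.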

How the data were processed

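The authors deposited 1 table of whole-number read counts per library for 40709 RefSeq transcripts. Per the submitters' processing notes, the build was hg19, and DESeq2 1.6.2, R 3.1.2, Bowtie2, CASAVA and SAMtools were used. The sources used here do not give the strand setting, duplicate handling or the rule for reads shared by isoforms. Transcripts were named through RefSeq (39324) and GENCODE (501) tables, and 884, with 1.121% of reads, kept their identifier. Both tables belong to GRCh38, so no hg19 coordinates are given. Counts were summed per gene. All 10 members passed the filter, PDE2A with at least 10 counts in 4 of the 9 libraries outside the core group.

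Tests used edgeR 4.0.16 in R 4.3.3: TMM factors, filterByExpr (minimum count 10, minimum total 15; 14616 genes kept), and a quasi-likelihood test of 4 group means fitted to 12 libraries at once, two-sided, Benjamini-Hochberg adjusted over all genes, threshold 0.05. It was also run on simulated data with known changes, set only in genes with more counts than PDE2A had outside the core group. That run therefore does not cover genes as scarce as PDE2A. Likeness used log2 CPM with a prior count of 2. Transcript lengths were at hand for 96.4% of tested genes.

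The members, the pathway and marker lists and the named-gene rule were chosen with earlier results of these data known. The rule names all members, at most 3 genes a list by unadjusted p of the core against dCas9, the tested neighbours, the 5 genes most like PDE2A, and IL1RN. Alternatives were RLE factors, DESeq2 1.42.0, limma-voom (limma 3.58.1), no filter, a replicate block, at least 1 CPM in 6 libraries, the CV41 libraries alone, the pool as a covariate, the compared groups alone, each library left out, and, chosen after seeing the data, offsets for transcript length. Figures used Python 3.11.15, pandas 2.3.3 and matplotlib 3.10.9.

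The labels state only triplicate transfection, so the p-values reflect only how these samples spread, which may be technical. For a single value, 3 libraries against 3 cannot give an exact permutation p below 0.1. Intervals cover the spread in the fit and not systematic error.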

Additional observations from a re-analysis of the deposited data

How the results depend on the processing

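Of the 57 tested member values, 0 were called under any of the 22 alternatives, 12 of which leave out 1 library. PDE2A with the core was not among the values tested. In at least 1 alternative, 32 of the 57 changed sign without passing the threshold. PDE2A with the core kept its sign in all 22, which its choice for this difference leaves little room to change. As a description, the log2 difference ran from 1.48 to 1.91 against dCas9, from 1.72 to 2.33 against D1399Y and from 1.61 to 2.27 against VP64. The counts of all genes called, small throughout, moved more. Against 1 for the core over dCas9, RLE factors gave 2, DESeq2 4, limma-voom 2, no filter 3, at least 1 CPM in 6 libraries 3 and length offsets 2, and leaving out 1 library 1 to 2 (2 without dCas9 replicate 2 or 3). Against 0 for VP64 and dCas9, DESeq2, no filter and length offsets each gave 1, and leaving out 1 library 0 to 1 (1 without dCas9 replicate 3). Against 0 for D1399Y and dCas9, RLE factors, DESeq2, limma-voom, no filter, at least 1 CPM in 6 libraries and length offsets each gave 1, and leaving out 1 library 0 to 1 (1 without dCas9 replicate 2 or 3). Against 1 for the core and D1399Y, DESeq2 gave 4, the compared groups alone 4, and leaving out 1 library 1 to 5 (5 without dCas9 replicate 3). Against 1 for the core and VP64, DESeq2 gave 5, no filter 3, the CV41 libraries alone 0, the pool as a covariate 0, the compared groups alone 6 and length offsets 4. Leaving out 1 library there gave 0 to 5, with 5 without dCas9 replicate 3 and 0 without any core replicate, VP64 replicate 1 or 2, or D1399Y replicate 2. Against 0 for VP64 and D1399Y, DESeq2, no filter and the compared groups alone each gave 2, length offsets 1, and leaving out 1 library 0 to 2 (2 without dCas9 replicate 3). Against 3 over the 4 groups, DESeq2 gave 9, the CV41 libraries alone 1, the pool as a covariate 1, and leaving out 1 library 1 to 6: 6 without dCas9 replicate 3 and 1 without core replicate 1 or 3, VP64 replicate 2 or 3, or D1399Y replicate 3. The cause was not tested.

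With the replicate number as a block, VP64 against dCas9 gave 1 call in place of 0 and the 4 groups together 1 in place of 3; PDE2A with the core stood at 1.71 against dCas9, 2.02 against D1399Y and 1.86 against VP64. The pairing of same-numbered libraries was checked by the correlation of their deviations from the group means, which ran from 0.112 to 0.467 for number 1, from 0.0315 to 0.485 for number 2 and from -0.176 to 0.497 for number 3. Among libraries of the other groups, 12 of 12 were closest to one of their own number. Not every pair exceeded 0.1, and the main tests did not take the numbers to pair the samples. Any difference shared by a number thus counts as spread in those tests and their intervals.

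Depth limits the members with few counts: PDE2A had 4 to 65 a library, PDE4B 6 to 22 and PDE3A 6 to 37. Between genes, levels depend on how isoforms are counted: by the highest single transcript in place of the sum, 7 of the 10 members moved by more than their SD.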
